A study of Rattus norvegicus with 24 samples.

Results

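The heat shock and endoplasmic reticulum (ER) chaperone genes were followed in rat mesenteric artery, the vessel that carries blood to the intestine. A probe was a member when its only gene symbol named an Hsp70 or Hsp110 protein or a small heat shock protein (Hspa, Hspb), a chaperonin (Hspd1, Hspe1, Cct), a J-domain co-chaperone (Dnaj), a protein disulfide isomerase (Pdia), Canx, Sdf2l1 or Hyou1. This gave 48 probes for 41 of the 6455 genes that had a probe with 1 symbol; the array has 10399 probes, 7294 of them with 1 symbol. A further 2 probes listed a gene of these families together with another symbol and were left out. The Hsp90 genes, Calr, Hspb1, Hsph1, Dnajb1 and the stress-inducible Hspa1a and Hspa1b were not analysed here, since the rule matched no probe to them alone. A test needed values from 3 animals or more in every group; all 48 met this, as did 10228 of all probes, and 46 were measured in all 12 animals.

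All 12 animals were female Sprague Dawley rats that had been ovariectomised at 3 weeks of age and were 5.5 weeks old at the end. After 2 weeks of recovery they were injected into the peritoneum for 4 days with sesame oil (vehicle, animals 3, 4, 5 and 8), estradiol benzoate at 0.15 mg per kg per day (animals 2, 3, 5 and 8) or testosterone at 1 mg per kg per day (animals 2, 4, 6 and 8). The vehicle animals therefore lacked their ovaries as well, and no group had intact ovaries. Labelled RNA of each animal was hybridised to 2 one-colour CodeLink arrays, and each level below is the mean of both arrays on the log2 scale, printed as a normalised intensity without a unit. An intensity depends on the probe as well as on its RNA, so levels are compared between animals and not between probes.

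Array medians lay between 0.926 and 0.951, and the duplicate arrays of an animal correlated at 0.976 to 0.993 across probes. Among the smooth muscle markers, Cnn1 was at 28.2 to 47.4 in the 12 animals. The endothelial marker Pecam1 was at 23.3 to 34 on probe 6346. Acta2, Myh11 and Nos3 were not analysed here. Of the pancreatic acinar markers, 9 of 20 genes were measured, and their summed intensity was 0.731 to 1.44 with vehicle, 0.828 to 105 with estradiol benzoate (highest in animal 3) and 0.698 to 2.52 with testosterone. The hepatocyte markers, 8 of 19 genes, summed to 1.56 to 34.9 with vehicle (highest in animal 5), 1.64 to 1.93 with estradiol benzoate and 1.22 to 1.51 with testosterone. In whole artery RNA, fewer cells of a type and less RNA per cell cannot be told apart.

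Chaperones bind unfolded proteins and help them to fold, and J-domain proteins deliver such clients to the Hsp70 proteins. In the cytosol, unfolded protein releases the transcription factor Hsf1, which binds heat shock elements in chaperone promoters. In the ER, unfolded protein activates Atf6 and Ire1, which makes active Xbp1, and these factors act on ER stress elements in the promoters of BiP, calnexin and other ER chaperones. Vascular smooth muscle cells secrete matrix and carry many receptors and channels that are folded in the ER.

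Promoter windows were taken from RefSeq (build GRCr8) for 32 of the 41 genes, and the stretches with such elements are shown for the members whose values are described in most detail. The heat shock element was searched as GAANNTTC or TTCNNGAA, which read the same on both strands and may overlap each other. It was found in 9 of the 32 windows (28.1%) and in 15.4% of all 27457 windows. Hspa8 had 4 matches in 2 overlapping pairs, at positions -213 to -201 and -55 to -43 from the start of the gene. Hspd1 and Hspe1 lie head to head on chromosome 9, and 1 stretch with 3 overlapping matches falls in both windows. Capitals mark the matches in the Hspa8 stretch at chr8:50080294-50080484 (plus strand) and the Hspe1 stretch at chr9:64084257-64084286 (plus strand).
Hspa8: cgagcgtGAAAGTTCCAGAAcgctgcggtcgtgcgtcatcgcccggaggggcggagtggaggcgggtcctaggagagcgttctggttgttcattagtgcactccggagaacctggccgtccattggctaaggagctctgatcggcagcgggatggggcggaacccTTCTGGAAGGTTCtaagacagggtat
Hspe1: ctcggTTCTAGAACCTTCCGGAAggccccg

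The ER stress element was searched on both strands as CCAAT and CCACG set 9 bases apart. It was found in the windows of Hspa5, Canx and Dnajc3 (9.38% of the 32) and in 0.0765% of all windows. A second form, ATTGG and CCACG set 1 base apart, was found in Dnajb11 and Hyou1 (6.25%) and in 0.0546% of all windows. The core TGACGTGG, which Xbp1 is known to bind, was found in Dnajb3 and Hyou1 (6.25%) and in 0.637% of all windows. In Hyou1 it overlaps the upstream one of 2 matches to the second form. Capitals mark the matches in Hspa5 at chr3:38452946-38453006 (plus strand), Canx at chr10:35158057-35158097 (minus strand), Dnajc3 at chr15:102432522-102432562 (plus strand) and Hyou1 at chr8:53602682-53602812 (plus strand). A match describes the letters only, and binding was not measured.
Hspa5: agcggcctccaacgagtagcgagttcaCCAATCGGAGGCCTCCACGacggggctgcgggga
Canx: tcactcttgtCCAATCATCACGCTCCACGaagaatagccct
Dnajc3: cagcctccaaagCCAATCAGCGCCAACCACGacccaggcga
Hyou1: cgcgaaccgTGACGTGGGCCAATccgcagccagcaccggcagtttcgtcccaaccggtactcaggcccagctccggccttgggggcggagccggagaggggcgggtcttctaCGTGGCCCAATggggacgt

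Across the family, differences between the groups were small, and 0 of the 48 probes passed limma's test at an adjusted p under 0.05 in any of the 3 comparisons. Among all probes tested, 0 (0%) passed for estradiol benzoate against vehicle, 5 (0.0489%) for testosterone against vehicle and 3 (0.0293%) for estradiol benzoate against testosterone. The difference from vehicle was within 0.25 on the log2 scale in 35 of the 48 probes with estradiol benzoate and in 38 with testosterone. Of all 10228 probes tested, this was so in 7325 and 7415. The difference was larger than 0.5 in 3 and 2 of the 48, and in 914 and 886 of all probes. The estradiol benzoate and testosterone animals differed by less than 0.25 in 44 of the 48 probes and in 8672 of all probes. In the plot of log2 differences by family, those beyond 0.5 were Hspd1, Pdia5 and 1 of 2 Hspb7 probes with estradiol benzoate. With testosterone they were Hspa8 and Hspd1. Just under that size with estradiol benzoate were Hspa8 (-0.495) and Hyou1 (0.496, with an SE of 0.447).

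**Figure D1:**
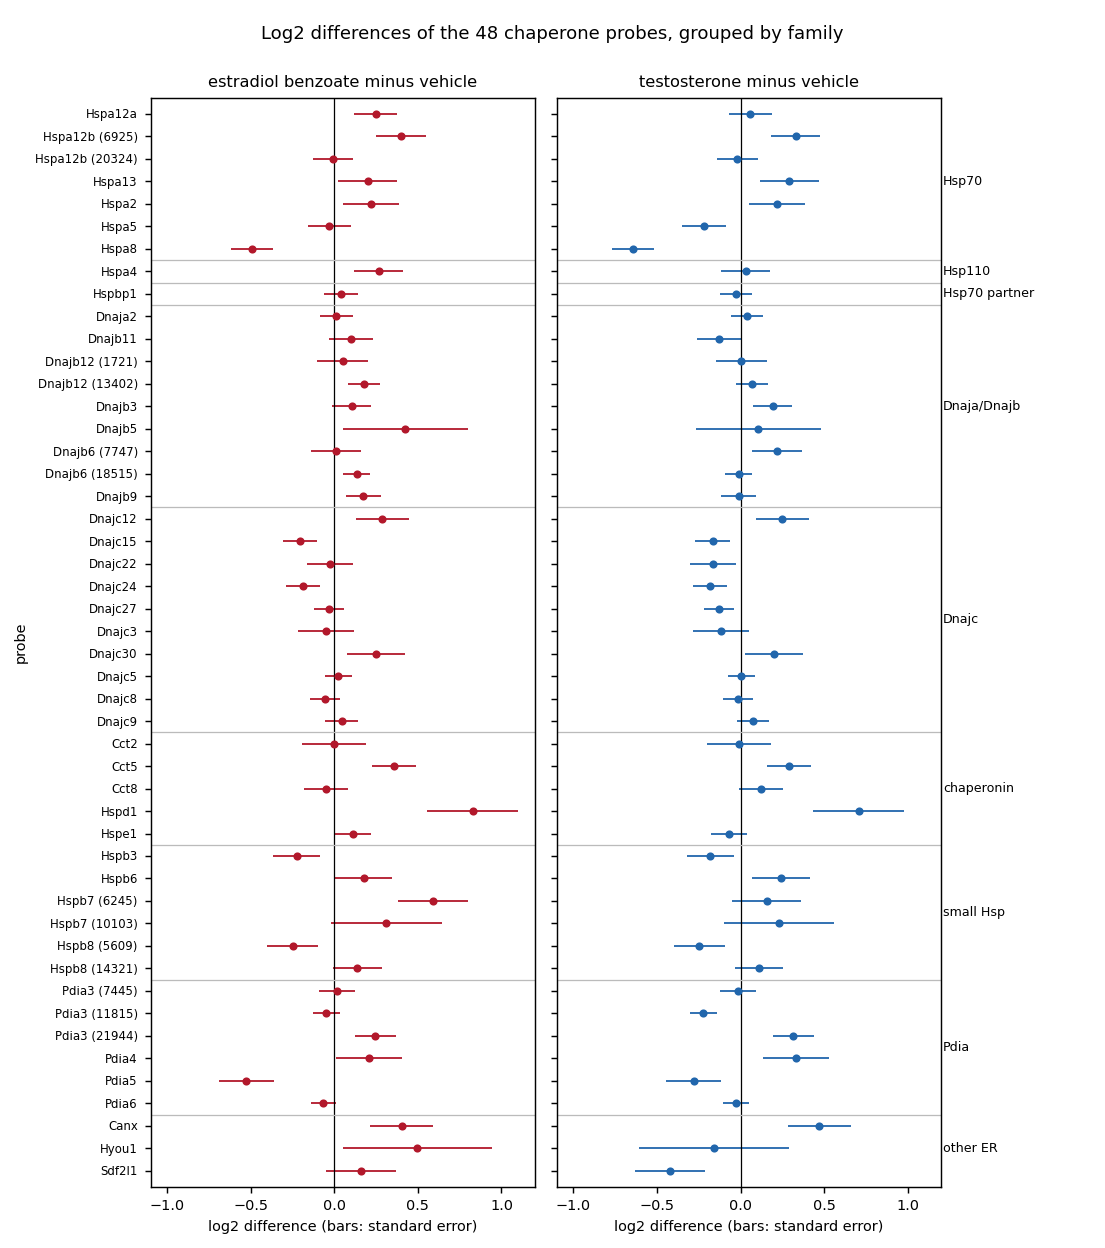
Log2 difference of each of the 48 chaperone probes between estradiol benzoate and vehicle (left) and between testosterone and vehicle (right), with bars for the standard error from limma (4 animals a group), grouped by family; probe numbers are given where a gene has several. Hspa8 lies at -0.50 and -0.64, Hspd1 at 0.83 and 0.71, and both comparisons use the same vehicle animals.

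At an unadjusted p under 0.05, limma counted 6 of the 48 probes (12.5%) for estradiol benzoate against vehicle, where 13.5% of all probes were counted. Of these, 4 were higher (6.77% of all probes were) and 2 were lower (6.69% of all probes). The count was 4 without estradiol benzoate animal 3 (8.51%, beside 8.93% of all probes) and 12 without vehicle animal 8 (25.5%, beside 14.8% of all probes). It was 10 on the AA arrays alone (21.3%, beside 11.7%) and after quantile normalisation (20.8%, beside 13%). For testosterone against vehicle it was 7 probes (14.6%), where 14.0% of all probes were counted. Of these, 5 were higher (6.62% of all probes) and 2 were lower (7.43% of all probes). That count was 2 without vehicle animal 3 (4.26%, beside 9.84% of all probes), without testosterone animal 2 (4.17%, beside 10.7%) or without testosterone animal 6 (4.17%, beside 10.4%). Between estradiol benzoate and testosterone it was 1 probe (2.08%), where 4.13% of all probes were counted, and 4 without testosterone animal 2 (8.33%, beside 4.99%). In the unaltered fit, which gave 6 and 7 probes against vehicle, the shares in the chaperone family were near those of the whole array. For estradiol benzoate the share rose above that of the whole array after quantile normalisation, on the AA arrays alone and without vehicle animal 8. For testosterone the share moved both ways. It fell below that of the whole array in each of the 3 refits that counted 2 probes. Leaving out testosterone animal 4 raised it to 20.8%, beside 14% of all probes.

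The 4 estradiol benzoate animals did not overlap the 4 vehicle animals in 5 probes (10.4%; 7.82% of all probes), which were Hspd1 and Cct5 on the higher side and Hspa8, Pdia5 and Dnajc15 on the lower side. The testosterone animals did not overlap the vehicle animals in 2 probes (4.17%; 5.59% of all probes), Hspa8 and probe 11815 of Pdia3, both lower. Estradiol benzoate and testosterone animals did not overlap in 1 probe (2.08%; 3.05% of all probes), probe 18515 of Dnajb6. In Hspa8 alone among the 48, all 8 hormone-treated animals lay on 1 side of all 4 vehicle animals, which was so for 1.87% of all probes.

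The median difference of the 48 probes was 0.10 for estradiol benzoate against vehicle, with 32 probes higher and 16 lower, beside -0.01 over all probes. For testosterone against vehicle it was 0.004, with 25 higher and 23 lower, beside -0.01 over all probes. Between estradiol benzoate and testosterone it was 0.04, with 31 higher and 17 lower, beside -0.004 over all probes. The first of these was 0.05 without vehicle animal 3 or in the brighter 75% of the probes. Without vehicle animal 8 it was 0.06. The last was 0.01 without estradiol benzoate animal 3 and 0.007 without testosterone animal 8.

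By compartment, the 16 ER probes had medians of 0.13 for estradiol benzoate and -0.02 for testosterone against vehicle. The 4 mitochondrial probes had 0.18 and 0.07, and the 28 probes of the cytosol or other places 0.04 and 0.05. All 9 Dnaja and Dnajb probes were above 0 for estradiol benzoate, by 0.01 to 0.43, and 6 of the 9 for testosterone. These 9 probes stand for 7 genes, and 0 had an unadjusted limma p under 0.05 in either comparison. Over all 10228 probes, 4870 were above 0 for estradiol benzoate and 4875 for testosterone. The mean of the 16 ER probes, each centred on its own mean over the animals, ran from -0.19 (animal 3) to 0.11 (animal 8) with vehicle, from -0.02 to 0.14 with estradiol benzoate and from -0.15 to 0.02 with testosterone. The 3 groups overlapped in this measure.

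**Figure D2:**
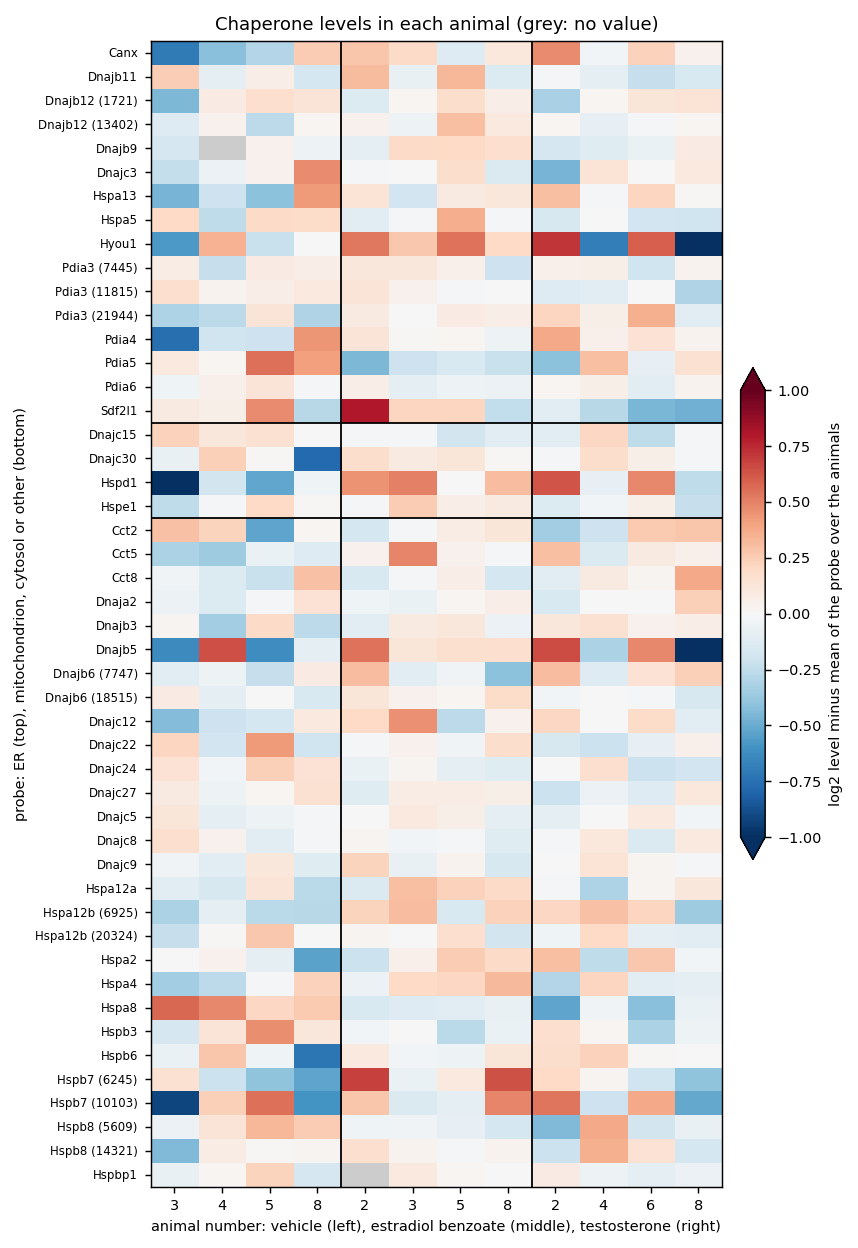
Log2 level of each of the 48 chaperone probes in each of the 12 animals minus the mean of the probe over the animals, by compartment; colours are capped at 1 on either side and grey marks a missing value. Hspa8 is high in the 4 vehicle animals, and vehicle animal 3 is the lowest animal for 12 of the 46 probes with values in all animals.

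The Hsp70 proteins are the central chaperones of the family. Hspa8 encodes Hsc70, the constitutive Hsp70 of the cytosol, which folds new proteins and uncoats clathrin vesicles. Its probe read 42.6, 39.8, 33 and 34.2 in vehicle animals 3, 4, 5 and 8. It read 25.7, 26.2, 26.5 and 27.1 in estradiol benzoate animals 2, 3, 5 and 8, and 19.8, 27.9, 21.4 and 27.3 in testosterone animals 2, 4, 6 and 8. Each of the 8 treated animals was below each vehicle animal, and the estradiol benzoate animals were close to one another.

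The geometric means of Hspa8 were 37.2, 26.4 and 23.8. The log2 difference from vehicle was -0.50 (SE 0.13) for estradiol benzoate, a ratio of 0.709, with a limma p of 0.00219 and an adjusted p of 0.191. For testosterone it was -0.64 (SE 0.13), a ratio of 0.64, with a limma p of 0.000304 and an adjusted p of 0.116. Both comparisons rest on the same 4 vehicle animals. Estradiol benzoate and testosterone differed by 0.15, with a 95% interval from -0.13 to 0.42. Over the alternatives tried, the difference from vehicle stayed between -0.57 and -0.36 for estradiol benzoate and between -0.72 and -0.52 for testosterone. The smallest differences, -0.36 and -0.52, were both those after quantile normalisation. The limma adjusted p ran from 0.0578 to 0.43 and from 0.0161 to 0.331. The only value under 0.05 came from the fit of 24 arrays with the animal as a random block. The p values of that fit rest partly on duplicate arrays of the same animal.

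Hspa8 has close relatives and many processed copies in mammalian genomes, and the probe sequence was not used here, so cross-hybridisation was not tested. Lymphocyte markers stood the other way round in the same animals. The 7 measured of 15 summed to 0.632 to 0.791 with vehicle, 0.804 to 1.41 with estradiol benzoate and 0.825 to 1.22 with testosterone. The sums of the vehicle group did not overlap those of the treated groups, with 0.791 and 0.804 as the nearest values. Taken singly, 3 of the 7 markers did not overlap vehicle with estradiol benzoate and 2 of the 7 with testosterone. Markers of other cell types differed between the same groups. All 8 hepatocyte markers were lower than vehicle with both hormones, the direction of Hspa8. Of 6 white adipocyte markers, 4 were higher and 2 lower than vehicle with each hormone. Agpat2 and Aqp7 were higher without overlap in both comparisons. The part of lymphocytes or of other cell types in the Hspa8 result was not tested.

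**Figure D3:**
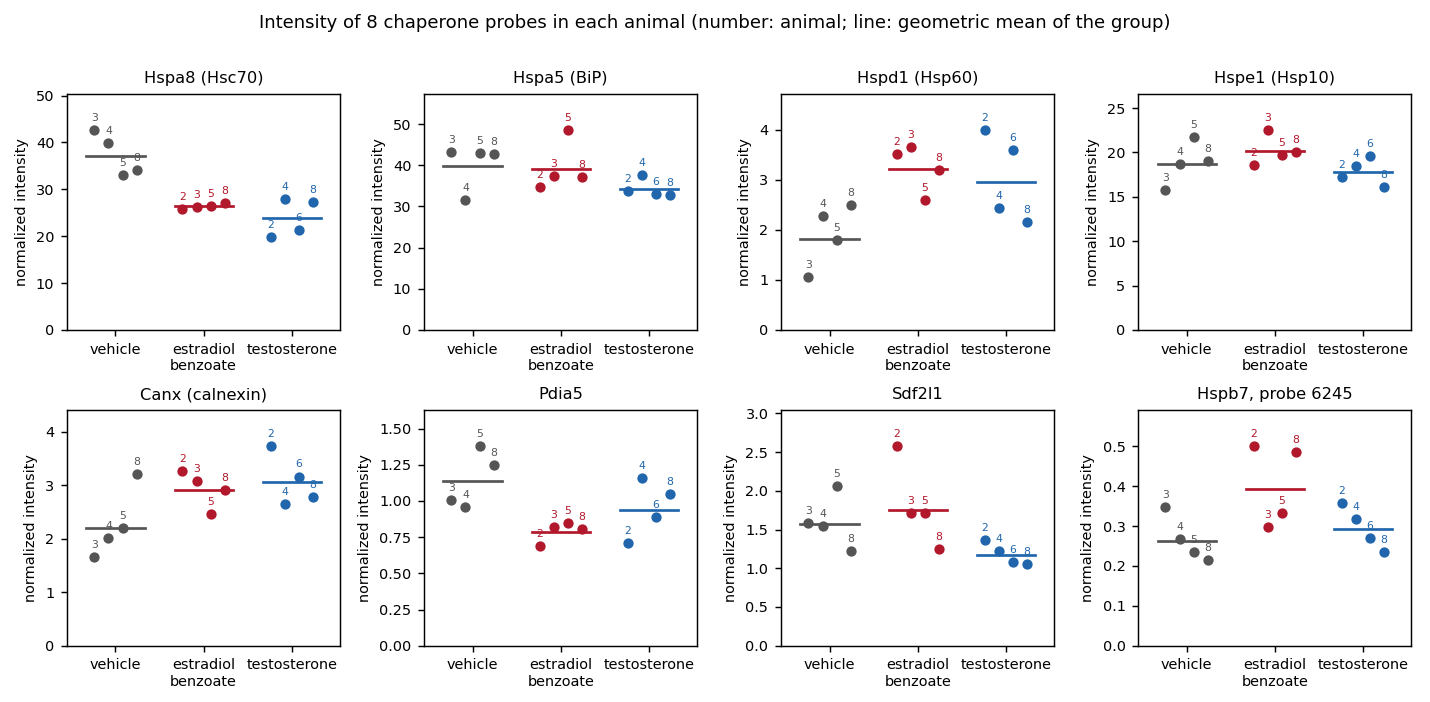
Normalised intensity (linear axis from 0) of 8 chaperone probes in each animal, by group, with the animal number above each point and a line at the geometric mean of the group. Hspa8 is at 33 to 42.6 in the vehicle animals and at 19.8 to 27.9 in the treated animals, while the groups of Hspa5 and Hspe1 overlap.

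Hspa5 encodes BiP, the Hsp70 of the ER lumen and the usual readout of ER stress. Its intensity was 43.3, 31.6, 43 and 42.8 with vehicle, 34.8, 37.3, 48.5 and 37.1 with estradiol benzoate and 33.7, 37.7, 33 and 32.8 with testosterone. The groups overlapped. The difference from vehicle was -0.03 for estradiol benzoate (95% interval -0.32 to 0.26) and -0.22 for testosterone (-0.51 to 0.07). Estradiol benzoate and testosterone differed by 0.19 (-0.10 to 0.48).

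Among the other Hsp70 relatives, Hspa13, a short Hsp70 of microsomes, differed from vehicle by 0.20 (SE 0.18) and 0.29 (SE 0.18) with estradiol benzoate and testosterone. Hspa2, best known from the testis, differed by 0.22 (SE 0.17) in both. Hspa12a, a distant relative, differed by 0.25 (SE 0.13) and 0.06. Hspa4, an Hsp110 protein that exchanges the nucleotide of Hsp70, differed by 0.27 (SE 0.15) and 0.03, and by 0.24 between estradiol benzoate and testosterone (0.12 on the AB arrays alone). Hspbp1, another exchange factor, was at 1.84 to 2.41 in the 11 animals with a value and differed by 0.04 and -0.03. The fit for Hspbp1 lacked estradiol benzoate animal 2. None of these passed the test.

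Hspa12b, a relative found in endothelium, had 2 probes whose differences were unlike. On probe 6925 the vehicle animals were at 0.112, 0.131, 0.116 and 0.115. The estradiol benzoate animals were at 0.163, 0.173, 0.126 and 0.164, and the testosterone animals at 0.161, 0.171, 0.162 and 0.109. Estradiol benzoate animal 5 lay inside the vehicle range and testosterone animal 8 below it, and the differences from vehicle were 0.40 (SE 0.15, limma adjusted p 0.307) and 0.33 (SE 0.15, limma adjusted p 0.355). On log2 of the intensity plus 0.1 they were 0.23 and 0.19. Probe 20324 differed by -0.01 and -0.02, with all groups between 1.97 and 2.78.

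Hspd1 and Hspe1 encode Hsp60 and its lid Hsp10, which fold proteins inside mitochondria and are transcribed from a shared promoter region. Hspd1 read 1.05, 2.27, 1.8 and 2.5 in the vehicle animals, 3.52, 3.66, 2.59 and 3.19 with estradiol benzoate and 3.99, 2.44, 3.59 and 2.16 with testosterone. All 4 estradiol benzoate animals were above all vehicle animals, and testosterone animals 4 and 8 were inside the vehicle range. Testosterone animals 6 and 8 had a value on 1 of their 2 arrays. The difference from vehicle was 0.83 (SE 0.27), a ratio of 1.77, for estradiol benzoate (limma adjusted p 0.276) and 0.71 (SE 0.27), a ratio of 1.63, for testosterone (limma adjusted p 0.311). Without vehicle animal 3 these were 0.57 and 0.44.

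Hspe1 was between 15.8 and 21.7 with vehicle, 18.6 and 22.5 with estradiol benzoate and 16.1 and 19.6 with testosterone. Its groups overlapped, and its difference from vehicle was 0.11 (95% interval -0.13 to 0.35) and -0.07 (-0.31 to 0.17). Whether Hspd1 and Hspe1 differ from each other in this was not tested. Estradiol benzoate and testosterone differed by 0.18 (SE 0.11) in Hspe1. The other mitochondrial members are J-domain proteins. Dnajc15 was at 4.18 to 4.89 with vehicle and 3.68 to 4.15 with estradiol benzoate, without overlap, a difference of -0.21 (SE 0.10, limma adjusted p 0.397). With testosterone Dnajc15 was at 3.5 to 4.81 (-0.17). Dnajc30 differed by 0.25 (SE 0.17) and 0.20 (SE 0.17).

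The Cct genes encode subunits of the ring chaperonin TRiC, which folds actin and tubulin. Cct5 was dim, at 0.0681 to 0.083 with vehicle, 0.0864 to 0.122 with estradiol benzoate and 0.0788 to 0.107 with testosterone. Its difference from vehicle was 0.36 (SE 0.13, limma adjusted p 0.306) and 0.29 (SE 0.13, limma adjusted p 0.355). With 0.1 added to the intensity before the log2 it was 0.16 and 0.13, and on the AA arrays alone the second was 0.14. The table used here holds no background flag, so whether dim probes such as this one stood above background was not tested. Of the other subunits, Cct2 differed by -0.001 and -0.01 and Cct8 by -0.05 and 0.12.

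In the ER, calnexin (Canx) holds newly made glycoproteins and Pdia3 (ERp57) joins their disulfide bonds. Canx read 1.65, 2.02, 2.2 and 3.21 with vehicle, 3.26, 3.08, 2.46 and 2.9 with estradiol benzoate and 3.73, 2.64, 3.16 and 2.78 with testosterone. Vehicle animal 8 lay inside both treated groups. The difference from vehicle was 0.40 (SE 0.19, limma adjusted p 0.377) and 0.47 (SE 0.19, limma adjusted p 0.318). Without vehicle animal 3 it was 0.26 and 0.33.

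The extremes of Canx among the animals were seen again in Pdia4 (ERp72), Hspa13 and Hspd1, which were set beside it after their values were seen. Pdia4 read 1.41 in vehicle animal 3, 3.24 in vehicle animal 8 and 3.09 in testosterone animal 2, with all other animals between 2.06 and 2.64, and differed from vehicle by 0.21 (SE 0.20) and 0.33 (SE 0.20). In all 4 genes vehicle animal 3 was lowest and vehicle animal 8 the highest of its group, and testosterone animal 2 the highest of its own. Over the whole family vehicle animal 3 was the lowest animal for 12 of 46 probes (26.1%), beside 12.8% of all probes. A gene that is no chaperone, the endothelial adhesion gene Pecam1, was looked at after its values were seen, because it had a bright and a dim probe. Its probe 11017 read 1.42 in vehicle animal 3, 3.63 in vehicle animal 8 and 3.84 in testosterone animal 2, the same extremes, whereas its probe 6346 read 33.3, 27.8 and 26.9 in these animals. What sets this order among the animals was not tested.

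Pdia3 had 3 probes, and they differed in sign. On probe 11815 the vehicle animals were at 40.3, 36.8, 37.6 and 38.4, the estradiol benzoate animals at 39.4, 37.1, 35.7 and 36.1 and the testosterone animals at 32.9, 33.3, 36 and 29.2. The testosterone animals were all below the vehicle animals, a difference of -0.22 (SE 0.08, limma adjusted p 0.295), which was -0.09 after quantile normalisation. Estradiol benzoate differed by -0.05 from vehicle on this probe and by 0.18 (SE 0.08) from testosterone, which was 0.33 on the AA arrays and 0.03 on the AB arrays.

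On probe 21944 of Pdia3 the vehicle animals were at 7.07, 7.3, 9.59 and 7.11, and the testosterone animals at 10.2, 9.12, 11.2 and 8.1. Vehicle animal 3 had a value on its AA array alone and testosterone animal 6 on its AB array alone. Vehicle animal 8 read 9.24 on the AA and 5.47 on the AB array. The estradiol benzoate animals were at 8.72 to 9.34. Here the difference from vehicle was 0.24 (SE 0.12) for estradiol benzoate and 0.32 (SE 0.12, limma adjusted p 0.314) for testosterone, and the latter was 0.02 on the AA arrays and 0.54 on the AB arrays. On probe 7445 it was 0.02 and -0.01. Pdia3 therefore has no single direction with testosterone in these data.

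**Figure D4:**
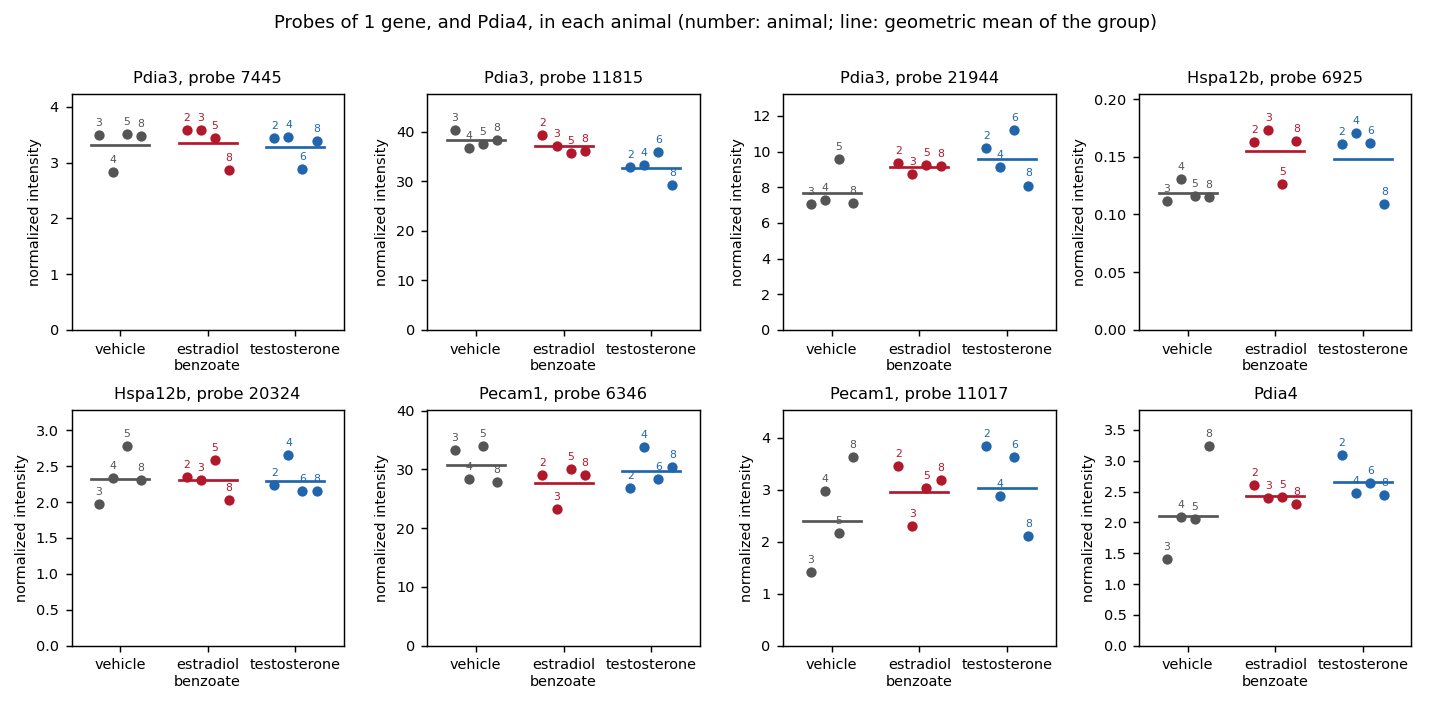
Normalised intensity (linear axis from 0) in each animal for the 3 probes of Pdia3, the 2 probes of Hspa12b, the 2 probes of the endothelial gene Pecam1 and the probe of Pdia4, with the animal number above each point and a line at the geometric mean of the group. With testosterone, Pdia3 is lower on probe 11815 (29.2 to 36) and higher on probe 21944 (8.1 to 11.2) than the group mean of vehicle, 38.2 and 7.7.

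Of the other disulfide isomerases, Pdia5 read 1.01, 0.955, 1.38 and 1.25 with vehicle, 0.689, 0.817, 0.85 and 0.806 with estradiol benzoate and 0.708, 1.16, 0.891 and 1.05 with testosterone. The estradiol benzoate animals were all below the vehicle animals, and the testosterone animals reached into both ranges. The difference from vehicle was -0.53 (SE 0.16), a ratio of 0.693, for estradiol benzoate (limma adjusted p 0.247) and -0.28 (SE 0.16) for testosterone (limma adjusted p 0.459). Between the hormones Pdia5 differed by -0.25 (95% interval -0.61 to 0.11), so a difference between their effects was not shown. Pdia6 (P5) was at 2.37 to 2.79 in all animals and differed from vehicle by -0.06 (SE 0.08) and -0.03, with intervals of -0.23 to 0.10 and -0.19 to 0.14.

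Sdf2l1, a partner of BiP and of the co-chaperone ERdj3, had the lowest p between the hormones. It read 1.58, 1.54, 2.06 and 1.22 with vehicle, 2.58, 1.72, 1.72 and 1.25 with estradiol benzoate and 1.37, 1.22, 1.08 and 1.06 with testosterone. Estradiol benzoate animal 8 lay inside the testosterone range. The difference between estradiol benzoate and testosterone was 0.58 (SE 0.21), a ratio of 1.5, with a limma p of 0.0176 and an adjusted p of 0.999. Against vehicle it was 0.16 (SE 0.21) for estradiol benzoate and -0.42 (SE 0.21, limma adjusted p 0.389) for testosterone. Hyou1 (Grp170), an ER exchange factor for BiP, was dim, at 0.0218 to 0.117, and had the largest SD between animals of a group among the 48 probes (0.709). Its differences of 0.50 and -0.16 had an SE of 0.45.

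J-domain proteins of the ER lumen bring clients to BiP, and none of the J-domain members of the ER passed the test. Dnajb9 (ERdj4), a target of Xbp1, was at 1.37 to 1.59 with vehicle, 1.45 to 1.77 with estradiol benzoate and 1.37 to 1.63 with testosterone. It differed from vehicle by 0.17 (SE 0.10) and -0.01, and by 0.18 (SE 0.10) between the hormones, in a fit without vehicle animal 4, which had no value. Vehicle animals 3 and 8 had a value on 1 of their 2 arrays. Dnajb11 (ERdj3) differed by 0.10 (SE 0.13) and -0.13 (SE 0.13), and by 0.23 between the hormones (0.37 on the AA and 0.09 on the AB arrays). The probes of Dnajb12, a J protein of the ER membrane, differed by 0.05 and 0.18 with estradiol benzoate and by 0.005 and 0.07 with testosterone. Dnajc3 (p58IPK), which carries an ER stress element in its promoter like Hspa5 and Canx, differed by -0.05 (95% interval -0.42 to 0.32) and -0.12 (-0.48 to 0.25). Side by side, the 3 genes with that element thus gave -0.03, 0.40 and -0.05 with estradiol benzoate and -0.22, 0.47 and -0.12 with testosterone for Hspa5, Canx and Dnajc3.

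In the cytosol, Dnaja2, a co-chaperone of Hsc70, was at 6.12 to 8.02 and differed by 0.01 (95% interval -0.20 to 0.22) and 0.04 (-0.17 to 0.25). Probe 18515 of Dnajb6, a suppressor of aggregation, was at 3.19 to 3.58 with estradiol benzoate and 2.82 to 3.14 with testosterone, without overlap, a difference of 0.14 (SE 0.08, limma adjusted p 0.999) that was 0.22 on the AA and 0.07 on the AB arrays. The other Dnajb6 probe, 7747, gave -0.21 (SE 0.15) for the same comparison. Dnajb5 was dim (0.0245 to 0.0829) with an SD of 0.592 between animals of a group, and differed from vehicle by 0.43 and 0.11 with an SE of 0.38. Dnajb3 differed by 0.10 and 0.19, both with an SE of 0.12. Dnajc8, a splicing-associated J protein, was at 8.1 to 10.1 and differed by -0.06 (SE 0.09) and -0.01. Dnajc24, which takes part in making diphthamide on an elongation factor, gave -0.19 and -0.18, both with an SE of 0.10. Dnajc12, a partner of the aromatic amino acid hydroxylases, gave 0.29 and 0.25, both with an SE of 0.16. Dnajc5, the cysteine string protein of secretory vesicles, gave 0.02 and 0.003, and Dnajc9, a histone co-chaperone, gave 0.04 and 0.07. Dnajc27 gave -0.03 and -0.13, and Dnajc22 gave -0.03 and -0.17. The Dnajc group as a whole had medians of -0.03 and -0.065 over 10 probes, from -0.21 to 0.29 with estradiol benzoate and from -0.18 to 0.25 with testosterone.

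Small heat shock proteins hold unfolded proteins in muscle cells, and Hspb6 (Hsp20) also takes part in the relaxation of smooth muscle. Hspb6 was at 5.4, 6.87, 5.51 and 3.43 with vehicle, at 5.47 to 6.17 with estradiol benzoate and at 5.64 to 6.66 with testosterone, and differed by 0.17 (SE 0.17) and 0.24 (SE 0.17). Vehicle animal 8 was the lowest of the 12.

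Hspb7, best known from heart and muscle, had the largest difference of the small heat shock proteins. Its probe 6245 read 0.347, 0.268, 0.235 and 0.216 with vehicle, 0.501, 0.298, 0.334 and 0.485 with estradiol benzoate and 0.358, 0.318, 0.271 and 0.236 with testosterone. Estradiol benzoate animals 2 and 8 were above all others, and animals 3 and 5 fell inside the vehicle range. The difference from vehicle was 0.59 (SE 0.21, limma adjusted p 0.291) for estradiol benzoate and 0.15 (SE 0.21) for testosterone, and the hormones differed by 0.43 (SE 0.21, limma adjusted p 0.999). The second Hspb7 probe, 10103, was at 0.014 to 0.0386 and gave 0.31 and 0.23 with an SE of 0.33, and the SD between its duplicate arrays was 0.563.

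The 2 probes of Hspb8, a partner of Bag3 in the removal of damaged filaments, differed in sign: probe 5609 gave -0.25 (SE 0.15) with both hormones and probe 14321 gave 0.14 and 0.11. Hspb3 was dim (0.0505 to 0.0869) and gave -0.23 and -0.18, both with an SE of 0.14. Of the 6 genes with several probes, the probes disagreed in sign in 3 genes for estradiol benzoate against vehicle and in 4 for testosterone against vehicle. With testosterone the brightest probe gave the lowest difference in each of the 6 genes. With estradiol benzoate this was not so for Dnajb6 (0.13 on the brighter probe, 0.01 on the other) and Hspb7 (0.59 and 0.31). This order was looked at after the values were seen, and whether differences depend on intensity was not tested. Over the 48 probes the median SD between animals of a group was 0.194 and between duplicate arrays 0.104, beside 0.195 and 0.119 over all probes.

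Other genes of the unfolded protein response were measured by 25 probes for 22 of 42 listed genes, and 0 passed the limma test at an adjusted p under 0.05 in any comparison. At an unadjusted p under 0.05, 1 was higher and 3 were lower with estradiol benzoate, 16% of the 25 probes beside 13.5% of all probes. With testosterone 2 were higher and 4 lower, 24% beside 14.0% of all probes, and between the hormones the count was 0, beside 4.13%. The medians of the list were -0.004, -0.04 and 0.005. Ero1a, the oxidase that recharges the disulfide isomerases, was at 0.204 to 0.348 with vehicle, 0.162 to 0.224 with estradiol benzoate (no value in animal 2) and 0.13 to 0.217 with testosterone. It differed from vehicle by -0.71 (SE 0.23, limma adjusted p 0.267) and -0.80 (SE 0.21, limma adjusted p 0.21). Ppp1r15a, which restarts translation after stress, differed by 0.46 and 0.38, both with an SE of 0.17. Prdx4, an ER peroxidase, differed by -0.24 and -0.22, and Selenos, an ER membrane selenoprotein, by -0.26 and -0.27.

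Manf, a secreted protein induced by ER stress, was at 10.8 to 14.2 with vehicle, 9.57 to 12.4 with estradiol benzoate and 8.12 to 10.7 with testosterone, a difference of -0.20 (SE 0.12) and -0.38 (SE 0.12, limma adjusted p 0.259). Between the hormones the smallest p values of the list belonged to Derl1 (0.15 on probe 13103), Creld2 (0.21) and Manf (0.18), each with a limma adjusted p of 0.999. Herpud1, another ER stress target, differed from vehicle by 0.18 with both hormones, with an SE of 0.17.

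Regulators of the heat shock response and co-chaperones outside the family were measured by 28 probes for 25 of 35 listed genes, and again 0 passed. At an unadjusted p under 0.05, 0 were higher and 3 lower with each hormone against vehicle, 10.7% of the 28 probes beside 13.5% of all probes for estradiol benzoate and 14.0% for testosterone. Between estradiol benzoate and testosterone 1 was higher (3.57%, beside 4.13% of all probes). The medians of the list were 0.01, -0.09 and 0.09. Clpb, a mitochondrial disaggregase, was at 0.824, 0.923, 0.588 and 0.904 with vehicle, 0.69, 0.618, 0.553 and 0.667 with estradiol benzoate and 0.555, 0.423, 0.52 and 0.482 with testosterone. All testosterone animals were below all vehicle animals. Clpb differed from vehicle by -0.34 (SE 0.15, limma adjusted p 0.342) and -0.70 (SE 0.15, limma adjusted p 0.136), and the hormones differed by 0.35 (SE 0.15, limma adjusted p 0.999).

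Chordc1, an Hsp90 co-chaperone, differed from vehicle by -0.40 (SE 0.12, limma adjusted p 0.244) and -0.25 (SE 0.12). The prefoldin subunits, which pass clients to TRiC, did not share a direction. Pfdn1 gave -0.31 and -0.30 (both SE 0.12) and Pfdn5 gave -0.15 and -0.39 (both SE 0.12). Pfdn2 was higher than vehicle on both of its probes. It gave 0.32 and 0.22 on probe 16619 and 0.225 and 0.137 on probe 16439, all with an SE of 0.16. Pfdn5 differed by 0.23 between the hormones. Hsf1, the master factor of the heat shock response, was at 0.602 to 0.767 in the 11 animals with a value and differed by 0.04 (SE 0.09) and -0.12 (SE 0.08) from vehicle and by 0.16 between the hormones. Cryab, a small heat shock protein of muscle that is not named by the Hsp symbols, differed by -0.04 in both, with an SE of 0.14.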

How the data were processed

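RNA of mesenteric arteries from 12 rats was measured on 24 one-colour arrays, 2 per animal from the same cRNA. The deposited values are linear spot intensities that the authors had normalised, since every array median lies just under 1; per the labels, 2 µg of total RNA gave cRNA, of which 10 µg was hybridised for 18 h at 37 C. Which scanner software, background correction, scaling and spot filters were used is not given in the sources used here. Per the deposited table, 152 to 665 cells were blank per array. These and 327 intensities at or below 0 were treated as missing. In the chaperone probes 22 of 1152 array values were blank and 0 were at or below 0.

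Log2 was taken of the deposited intensities without a pseudocount, and both arrays of an animal were averaged. Genes were named from the platform annotation, where 7294 probes had 1 symbol and 88 several; 7284 were matched to RefSeq by gene ID, which changed 0 symbols. A group-means model was fitted in R 4.3.3 with limma 3.58.1 (lmFit and eBayes, two-sided, 9 residual degrees of freedom) to all 10228 probes, with Benjamini-Hochberg adjustment over them. Intervals are 95%. The precision is limited by the number of animals and arrays. The fit was tested on simulated data. Groups follow the labels, which give 4 separate animals each.

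The chaperone genes and the lists beside them were chosen with earlier results of these data known. The text names the 8 probes with the smallest p per comparison, the 3 smallest per pathway list, the 5 most variable, the highest of each family and well-known members. Other genes were named after their values were seen. Alternatives covered quantile normalisation, 0.1 added before log2, the brighter 75% of probes, AA or AB arrays alone, another variance prior, 24 arrays with the animal as a random block, a replicate block, each animal left out, and, added after seeing the data, estradiol benzoate animal 3 and vehicle animal 5 left out together.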

Additional observations from a re-analysis of the deposited data

Results flagged for a closer look

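Of 142 groups of 4 animals, over all 48 chaperone probes, 13 had 1 animal whose gap to the nearest other was large for the range of its group (Dixon's 95% value, which chance alone exceeds in about 5% of groups). In the vehicle group, animal 4 was the lowest for Hspa5 at 31.6, with the next at 42.8, and for probe 7445 of Pdia3 at 2.83, with the next at 3.48. Vehicle animal 3 was the lowest for probe 1721 of Dnajb12 at 0.439, with the next at 0.634, and for probe 14321 of Hspb8 at 1.08, with the next at 1.48. Vehicle animal 5 was the highest for probe 21944 of Pdia3 at 9.59, with the next at 7.3.

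With estradiol benzoate, animal 3 was the highest for Cct5 at 0.122, with the next at 0.0898, and the lowest for Hspa13 at 1.96, with the next at 2.39. Animal 2 of that group was the highest for Dnajb5 at 0.0769, with the next at 0.059. It was the lowest for Dnajb9 at 1.45, with the next at 1.73, and for Dnajc27 at 1.46, with the next at 1.65. With testosterone, animal 8 was the lowest for probe 6925 of Hspa12b at 0.109, with the next at 0.161, and for probe 18515 of Dnajb6 at 2.82, with the next at 3.09. Testosterone animal 6 was the lowest for probe 7445 of Pdia3 at 2.89, with the next at 3.39.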

How the results depend on the processing

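Over the alternatives tried, the 24 log2 differences of named members kept their direction in all 492 refits. Part of these refits could not change a direction. Another variance prior, the filter for brighter probes and leaving out an animal of the group outside the comparison do not alter the log2 difference. The 24 had also been chosen by their small p in the same data. Of the 492, 489 stayed on the same side of an adjusted p of 0.05 (limma) and 3 passed it. These 3 came from the fit of 24 arrays with the animal as a random block, which called 2 members for estradiol benzoate against vehicle (Hspd1, adjusted p 0.037, and Pdia5, 0.041; 226 probes in all) and 1 for testosterone against vehicle (Hspa8, 0.0161; 151 probes in all). With 1 animal left out, 0 members were called in each comparison.

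For estradiol benzoate against vehicle, the members at an unadjusted p under 0.05 numbered 10 after quantile normalisation (20.8%, beside 13% of all probes) and on the AA arrays (21.3%, beside 11.7%), and 4 (without estradiol benzoate animal 3; 8.51%, beside 8.93%) to 12 (without vehicle animal 8; 25.5%, beside 14.8%) with 1 animal left out. Their median was 0.137 after quantile normalisation, 0.055 with 0.1 added, 0.047 in the brighter probes, 0.049 on the AB arrays, 0.147 without estradiol benzoate animal 3 and vehicle animal 5, and 0.047 to 0.125 with 1 animal left out. For testosterone against vehicle the count was 2 (4.26%, beside 9.84% of all probes, without vehicle animal 3) to 10 (20.8%, beside 14%, without testosterone animal 4) with 1 animal left out, and the median was 0.051 after quantile normalisation and -0.004 to 0.039 with 1 animal left out. Between the hormones the count was 3 after quantile normalisation, with 0.1 added, on the AA arrays, with the other variance prior and with the random block (6.25% or 6.38%, beside 4.01% to 5.08% of all probes). It was 2 in the brighter probes (4.76%, beside 4.25%) and without estradiol benzoate animal 3 and vehicle animal 5 (4.35%, beside 3.37%). With 1 animal left out it was lowest, at 1, without vehicle animal 4, 5 or 8 (2.08% or 2.13%, beside 3.94% to 4.78%). It was highest, at 4, without testosterone animal 2 (8.33%, beside 4.99%). The median between the hormones was 0.011 without estradiol benzoate animal 3 and vehicle animal 5, and 0.007 to 0.07 with 1 animal left out. The cause of these shifts was not tested.

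Replicate numbers recur between groups. The deviations of same-numbered animals from their group means correlated at -0.115 to 0.297 in 7 pairs, of which 2 were over 0.1. In the other 41 pairs they correlated at -0.278 to 0.239, and 5 were over 0.1. No test was run on these 7 pairs, so they cannot decide whether same-numbered animals were paired. With the replicate block, the count was 4 for estradiol benzoate (8.33%, beside 12.2% of all probes), 4 for testosterone against vehicle (8.33%, beside 9.67%) and 3 between the hormones (6.25%, beside 6.2%), and 0 members were called. Against vehicle, testosterone then differed by 0.31 for Hspd1, 0.27 for Canx and 0.19 for probe 6925 of Hspa12b, and between the hormones it was 0.09 for Dnajb9 and 0.12 for Dnajb11. Signal over background, which limits the dim probes, is not in the table.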
